A study of Sus scrofa with 6 samples.

Results

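NCAPD3 encodes the D3 subunit of condensin II, a ring-shaped protein complex that compacts chromosomes, and it is described here in longissimus muscle, the long back muscle, of pigs (Sus scrofa) with high or low intramuscular fat. It is 1 of 7661 gene records in the deposited table, found there as the record named NCAPD3 (ENSSSCG00000022192). It lies on chromosome 9 from 67389926 to 67429731 on the plus strand, in the coordinates of that table, whose genome build is not given in the sources used here. The gene was chosen from its own read levels in the comparison of the high with the low group. Its levels in that comparison are therefore a description and carry no test. The study measured transcripts by RNA sequencing in 3 libraries from pigs with high and 3 from pigs with low intramuscular fat, the fat stored inside the muscle. The labels give no treatment, and the sources used here do not give the breed, sex, age or kinship of the pigs, so neither group is defined beyond its fat content.

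Condensin complexes pass loops of DNA through a ring formed by the ATP-driven proteins SMC2 and SMC4. Condensin I and condensin II share this pair and differ in the other subunits, a kleisin that closes the ring (NCAPH in condensin I, NCAPH2 in condensin II) and HEAT-repeat proteins that bind DNA (NCAPD2 and NCAPG in condensin I, NCAPD3 and NCAPG2 in condensin II). Condensin II is found in the nucleus throughout the cell cycle, starts the folding of chromosomes in early mitosis and is also present in cells that do not divide. The nuclei of muscle fibres do not divide, while the satellite cells, the stem cells of muscle, and the fat, connective tissue, vessel and blood cells of the tissue can.

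Library totals lay between 30139025 and 34813172 reads in the low and between 25371989 and 28874691 reads in the high group, so every low library was the deeper, by 1.21 times on the means. Mitochondrially encoded genes took 8.06% to 12.7% of the low and 6.99% to 11.5% of the high libraries. The muscle label fitted the markers, with ACTA1, the actin of skeletal muscle fibres, between 22413 and 29737 CPM (read counts scaled to library size per 1e6 reads, adjusted here by the TMM method of edgeR for differences in composition). Genes below a floor were left aside, since every listed record had a deposited CPM above 10 in at least 3 libraries. NCAPD3 met this through the low group alone, so its presence in the table and a difference between the groups are not independent.

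NCAPD3 stood lower in every high library than in each low library. It had 3134 reads in low library 1, 2347 in low library 2 and 1422 in low library 3. In the high group it had 194, 244 and 183 reads in libraries 1 to 3. The groups did not overlap, and the smallest low count was 5.83 times the largest high count before any scaling.

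The deposited CPM were 90.02, 74.8 and 47.2 in low libraries 1 to 3 and 7.65, 9.57 and 6.34 in high libraries 1 to 3. Exact Clopper-Pearson intervals at 95%, which cover counting error only, ran from 44.8 to 49.7 CPM in low library 3, the lowest of its group, and from 8.40 to 10.8 CPM in high library 2, the highest of its group. The order of the levels was low 1, low 2, low 3, high 2, high 1 and high 3. The intervals of the 3 low libraries were apart from each other, so the low libraries differed by more than counting error. In the high group those of libraries 1 and 2 overlapped (6.61 to 8.80 and 8.40 to 10.8 CPM), as did those of libraries 1 and 3 (5.45 to 7.33 CPM in library 3).

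**Figure D1:**
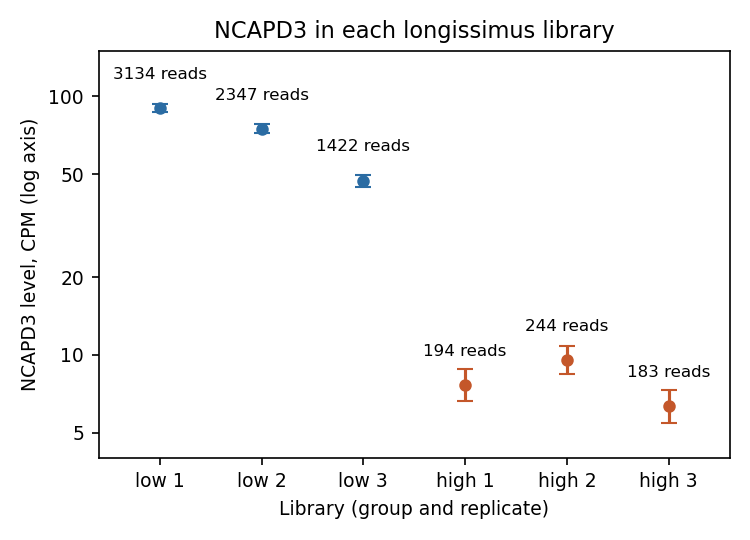
NCAPD3 level in each of the 6 libraries as deposited CPM (read counts per 1e6 reads of the library, log axis), with 95% exact binomial intervals for counting error and the read count above each point. The 3 low libraries (blue) lie between 47.2 and 90.02 CPM and the 3 high libraries (orange) between 6.34 and 9.57 CPM.

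With TMM scaling NCAPD3 was at 69.7 ± 19.4 CPM in the low and 7.88 ± 1.45 CPM in the high group (SD, n = 3 each). The low mean was 8.84 times the high mean, and the log2 fold change of the fit across all records was -3.15 (high minus low). The lowest low library (50.3 CPM) was 5.42 times the highest high library (9.27 CPM). Within the groups the highest library exceeded the lowest by 1.77 times in the low and by 1.45 times in the high group. On the log2 scale these within-group ranges were 0.82 and 0.54, against medians over all records of 0.40 and 0.29, and 84.98% and 80.9% of records had a smaller range in the low and the high group. NCAPD3 thus varied more than most records inside both groups, and its between-group gap was larger still. In bulk muscle, fewer cells of a type and less RNA per cell cannot be told apart. The labels name 6 libraries and the design 3 pigs a group, so the spread holds differences between animals and between libraries together.

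Among all records NCAPD3 had the lowest log2 fold change, and only SCD, a fatty acid desaturase that was higher in the high group, lay farther from 0. Of all records, 4 lay below -2 and 9 above 2, around a median of -0.04. The gap between the lowest low and the highest high library was 2.43 for NCAPD3 on the log2 scale. The next largest gap in that direction was 0.83, at ENSSSCG00000023902, and it was followed by 0.77 at ACAD10, an acyl-CoA dehydrogenase family member, and 0.74 at ARMC6, an armadillo repeat protein. NCAPD3 was the 1 record with a gap over 1 in that direction, while 13 records had such a gap in the other direction. In the fit 11 records, 0.144% of the table, passed an adjusted p of 0.05 in edgeR's quasi-likelihood test, 10 higher (0.131%) and 1 lower (0.0131%) in the high group. The 1 lower record is NCAPD3, which was chosen from this contrast, so nothing is read from its place there; the number of lower records was 0 without low library 2 and 0 without high library 1, so NCAPD3 itself was not called there. Counted in both directions, the 11 calls became 30 without low library 1, 1 without low library 2 and 16 without low library 3. They became 4 without high library 1, 4 without high library 2 and 5 without high library 3, and DESeq2 called 518 records (6.76%). Groups that do not overlap were found in 26.8% of records, 13.3% lower and 13.5% higher in the high group, and 18.5% of records had an unadjusted p under 0.05.

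**Figure D2:**
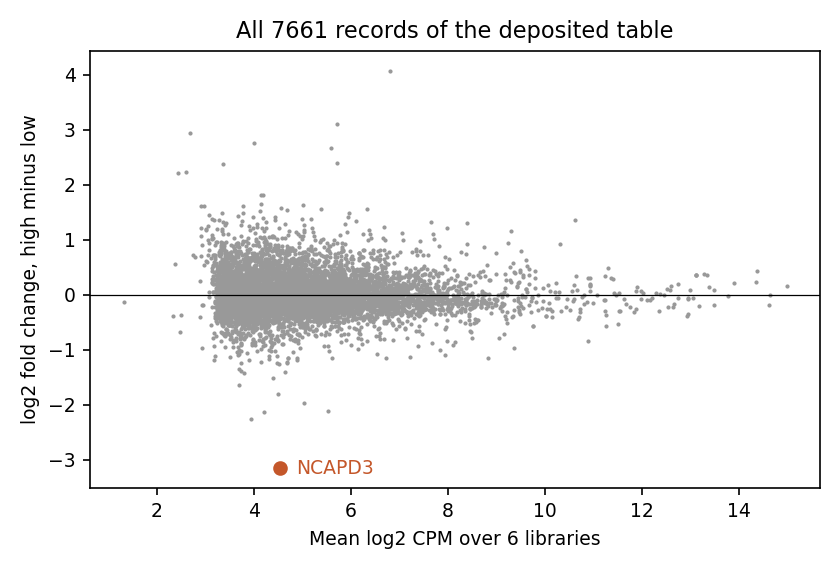
Log2 fold change (high minus low) against mean log2 CPM over the 6 libraries, 1 point for each of the 7661 records, with NCAPD3 in orange. NCAPD3 lies at -3.15, below every other record.

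The records that follow NCAPD3 by fold change had a different layout over the libraries. GBP6, an interferon-induced guanylate-binding protein, stood at 109, 226 and 24.3 CPM in low libraries 1 to 3 and between 18.5 and 45.6 CPM in the high group. ISG12(A), also interferon-induced, stood at 11.4, 15.2 and 131 CPM in the low libraries and between 10.2 and 13.6 CPM in the high group. In both the difference rested on 1 or 2 low libraries and the groups overlapped, unlike NCAPD3, which was high in all 3. THBS2, a matrix glycoprotein, was at 103, 7.07 and 50.2 CPM in the low and between 12.6 and 18.9 CPM in the high libraries. ENSSSCG00000021903 (9.18, 26.8 and 87.7 CPM in the low, 6.13 to 11.3 CPM in the high group) overlapped too, while ENSSSCG00000014565 (30.01, 51.1 and 133 CPM against 16.3 to 20.7 CPM) did not. Their log2 fold changes ran from -2.26 for ENSSSCG00000021903 to -1.80 for THBS2, and none passed in edgeR's quasi-likelihood test (adjusted p from 0.134 to 0.266).

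The genes next to NCAPD3 did not share its difference. The table lists 6 other records within 1 Mb of it on chromosome 9, and these lie with NCAPD3 in 158 kb, from 67348892 to 67507329. Their log2 fold changes were between 0.10 and 0.38 (median 0.17), each on the other side of 0 from that of NCAPD3, although VP26B stood at -0.033 without high library 1 and ACAD8 (ENSSSCG00000028123) at -0.0086 without low library 2. In edgeR's quasi-likelihood test 0 of the 6 passed (smallest adjusted p = 0.434), 0 had an unadjusted p under 0.05, and DESeq2 and limma-voom called 0 as well. The groups overlapped in all 6, where 26.8% of all records have groups that do not overlap. The 95% intervals of the 6 log2 differences reached from -0.36 at the lowest to 0.95 at the highest. A difference of the size seen for NCAPD3 lies outside each of them. Each interval holds 0 and small differences in either direction.

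VP26B, the table's name for VPS26B, a subunit of the retromer that sorts cargo in endosomes, is the nearest. It lies on the minus strand, ends 9.61 kb before the start of NCAPD3, and so points away from it. VP26B was at 22.6, 19.96 and 18.4 CPM in low libraries 1 to 3 and at 26.6, 23.3 and 16.1 CPM in high libraries 1 to 3. The groups overlapped, with a log2 fold change of 0.11 (95% interval -0.36 to 0.59). Beyond it lie ENSSSCG00000015262, which has no symbol (0.38, interval -0.20 to 0.95), and a first record of ACAD8, the mitochondrial isobutyryl-CoA dehydrogenase of valine breakdown (ENSSSCG00000028123, 0.10, interval -0.35 to 0.54).

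On the other side the nearest record is ENSSSCG00000025707, 24.2 kb after the end of NCAPD3 and on the same strand. It has no symbol and stood at 52.5, 43.1 and 39.1 CPM in the low and 59.6, 52.1 and 39.4 CPM in the high libraries (0.17, interval -0.27 to 0.60). THYN1, a nuclear protein named after thymocytes, was at 43.5, 35.7 and 32.9 CPM in the low and at 51.1, 44.1 and 31.8 CPM in the high libraries. Its log2 fold change was 0.18 (interval -0.28 to 0.64), and that of the second ACAD8 record (ENSSSCG00000015260) was 0.20 (interval -0.26 to 0.66). The span of ENSSSCG00000025707 covers both THYN1 and this ACAD8 record, whose own spans overlap by 963 bases, and ACAD8 stands on 2 records, so these 4 can share reads. No listed record overlaps NCAPD3.

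**Figure D3:**
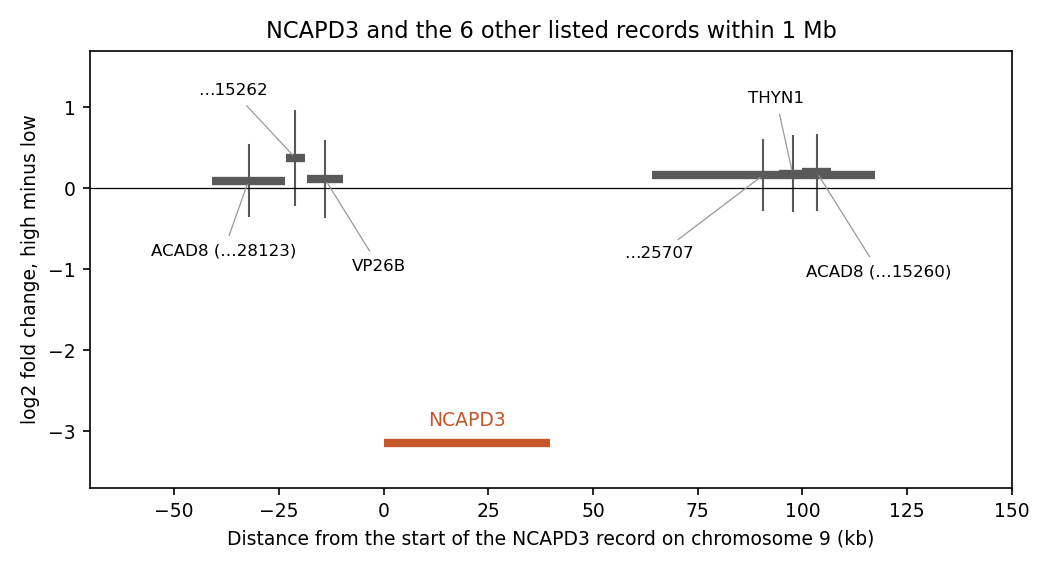
Log2 fold change (high minus low) of NCAPD3 and of the 6 other listed records within 1 Mb, drawn over their spans in kb from the start of NCAPD3, with vertical lines for 95% intervals (none is drawn for NCAPD3, which was chosen from this contrast). The 6 neighbours lie between 0.10 and 0.38 and NCAPD3 at -3.15; names starting with dots are the last digits of Ensembl identifiers.

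Ratios of read counts inside a library need no scaling. NCAPD3 was chosen from these same reads and the neighbours differed little, so a separation in these ratios follows from that choice. For each VP26B read there were 3.95, 3.49 and 2.73 NCAPD3 reads in low libraries 1 to 3 and 0.30, 0.398 and 0.396 in high libraries 1 to 3. Of all reads in the 7 records of the region, NCAPD3 held 33.97%, 33.8% and 27.9% in the low and 3.85%, 5.14% and 4.71% in the high libraries. These ratios are not corrected for gene length and compare libraries, not genes. The summed level of the 6 neighbours was 147 ± 23.2 CPM in the low and 167 ± 35.4 CPM in the high group (SD, n = 3 each).

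Outside this group the nearest listed records were ADAMTS15, a matrix protease 3.97 Mb before NCAPD3, and FMO2, a flavin monooxygenase 2.66 Mb after it, so windows of 0.5 and 2 Mb hold the same 6 neighbours. In the RefSeq annotation of another build (Sscrofa11.1) the order is JAM3, NCAPD3, VPS26B, THYN1 and ACAD8, and JAM3, a junctional adhesion molecule, overlaps NCAPD3 there. That order differs from the deposited coordinates, which put VP26B and 1 of the 2 ACAD8 records on the other side of NCAPD3 from THYN1. The sides and distances given here hold for the deposited coordinates only, and which order is right was not tested. JAM3 was not matched to a record of the table and is not analysed here. Because the strand setting of the authors' counting is not given, reads of an overlapping gene cannot be told apart from those of NCAPD3. Chromosome 9 as a whole has 368 listed records with a median log2 fold change of 0.04. On it 26 records (7.07%) were lower in the high group without overlap, against 13.3% of all records, and after NCAPD3 the lowest was UTP25, a factor of ribosome assembly, at -1.35.

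The other condensin subunits did not follow NCAPD3. Of 8 condensin genes 6 were matched, on 7 records with NCAPD3; NCAPG2 and NCAPG are not analysed here. Of the 6 records beside NCAPD3, 3 were higher and 3 lower in the high group (median 0.10). In edgeR's quasi-likelihood test 0 passed (smallest adjusted p = 0.261), and DESeq2 and limma-voom called 0. Of the 6, 1 had an unadjusted p under 0.05, where 18.5% of all records did. Groups that do not overlap were found in 2 of the 6, where 26.8% of all records have such groups.

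NCAPH2, the kleisin of condensin II and the 1 other measured subunit particular to that complex, was at 12.6, 14.6 and 12.97 CPM in low libraries 1 to 3. In the high libraries it was at 10.1, 11.02 and 11.5 CPM. The groups did not overlap, yet the log2 fold change was only -0.30 (95% interval -0.63 to 0.03, adjusted p = 0.301 in edgeR's quasi-likelihood test). NCAPH2 shared the direction of NCAPD3 at a far smaller size.

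SMC4, one of the ring-forming pair, was at 19.2, 22.96 and 16.7 CPM in the low and at 25.4, 28.2 and 20.7 CPM in the high libraries. Its log2 fold change was 0.34 (interval -0.08 to 0.75), and that of its partner SMC2 was 0.32 (interval -0.21 to 0.84; 8.76 to 13.1 CPM in the low and 10.9 to 17.04 CPM in the high group). NCAPD2, the counterpart of NCAPD3 in condensin I, was at 12.4, 17.7 and 11.9 CPM in the low and 13.7, 12.3 and 10.1 CPM in the high libraries (-0.22, interval -0.70 to 0.26). NCAPH, the kleisin of condensin I, has 2 records, which can share reads. ENSSSCG00000008125 was at 32.5 to 34.8 CPM in the low and at 39.5 to 40.4 CPM in the high group (0.26, interval 0.01 to 0.51, adjusted p = 0.261 in edgeR's quasi-likelihood test). The other, ENSSSCG00000024928, stood at -0.06 (interval -0.41 to 0.29), and at 0.10 with the trend of level on gene span removed.

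Within the condensin genes NCAPD3 held a smaller share of the reads in the high libraries. This too follows from its choice by these reads and adds no support. NCAPD3 held 46.3%, 38.4% and 34.5% of all condensin reads in low libraries 1 to 3 and 6.30%, 7.30% and 5.85% in high libraries 1 to 3. For each NCAPH2 read there were 7.09, 4.77 and 3.87 NCAPD3 reads in the low and 0.789, 0.841 and 0.556 in the high libraries. For each SMC4 read the numbers were 4.64, 3.04 and 3.01 in the low and 0.314, 0.329 and 0.308 in the high libraries. The ratio to SMC4 varied little among the 3 high libraries, and the groups were apart in both ratios.

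Cohesin, the related ring complex that holds sister chromatids together and folds interphase chromatin into loops, had no record past the threshold in edgeR's quasi-likelihood test. Of 17 genes of cohesin and its regulators 12 were matched on 13 records, 11 higher and 2 lower in the high group (median 0.25, against -0.04 over all records). Of the 13, 5 had an unadjusted p under 0.05, where 18.5% of all records did, limma-voom called 0 and DESeq2 called 1 (6.76% of all records), STAG2 (adjusted p = 0.0204 in DESeq2). STAG2, a cohesin subunit, was at 75.1, 69.1 and 53.5 CPM in the low and at 103, 97.02 and 96.7 CPM in the high libraries. Its log2 fold change was 0.59 (interval 0.23 to 0.94, adjusted p = 0.140 in the quasi-likelihood test). NIPBL, which loads cohesin onto DNA, stood at 0.56 (interval 0.14 to 0.99), and its partner MAU2 at -0.16 (interval -0.47 to 0.14). The ring subunits SMC1A and SMC3 stood at 0.41 and 0.21 and RAD21, the kleisin that closes the ring, at 0.22.

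Of the proteins that hold or release cohesin, PDS5A and PDS5B stood at 0.50 and 0.44, the release factor WAPL (listed as WAPAL) at 0.25, the acetyltransferase ESCO1 at 0.25 and the subunit STAG1 at 0.16. CTCF, the DNA-binding factor at loop borders, stood at 0.19 and -0.09 on its 2 records, which can share reads. The summed level of the 13 records was between 494 and 602 CPM in the low and between 670 and 720 CPM in the high group. With the trend of level on gene span removed in each library, RAD21 turned to -0.04, and NCAPD3, with a span of 39.8 kb, stood at -3.21.

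The SMC5/6 complex, which acts in DNA repair and replication, had 3 of 9 genes matched. SMC5 stood at 0.26 (interval -0.25 to 0.77), SMC6 at 0.18 (interval -0.20 to 0.57) and the subunit NSMCE4A at -0.22 (interval -0.57 to 0.13). Over condensin without NCAPD3, cohesin and SMC5/6 together, 0 of 22 records passed in edgeR's quasi-likelihood test. An unadjusted p under 0.05 was found in 6 of them, where 18.5% of all records had one. DESeq2 called 1 and limma-voom 0.

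**Figure D4:**
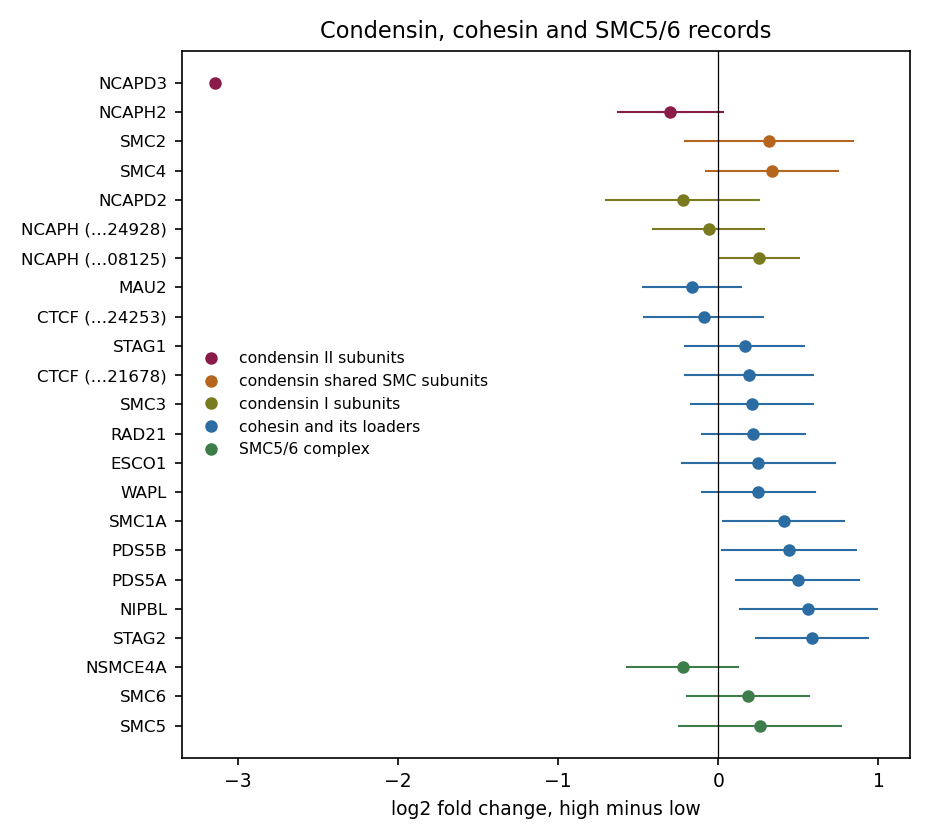
Log2 fold change (high minus low) of the measured condensin, cohesin and SMC5/6 records with 95% intervals as horizontal lines (none is drawn for NCAPD3, which was chosen from this contrast). NCAPD3 lies at -3.15 and the other 22 records between -0.30 and 0.59.

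Known partners and regulators of condensin II varied in both directions. Of 16 such genes 11 were matched, 6 higher and 5 lower (median 0.03). In edgeR's quasi-likelihood test 0 passed, and DESeq2 and limma-voom called 0. Of the 11, 4 had an unadjusted p under 0.05, where 18.5% of all records did. RB1, the retinoblastoma protein, which binds NCAPD3 in other systems, was at 49.1, 49.4 and 41.2 CPM in the low and at 61.3, 57.4 and 57.4 CPM in the high libraries (0.33, interval 0.05 to 0.62, adjusted p = 0.221 in edgeR's quasi-likelihood test). TOP2B, a DNA topoisomerase, stood at 0.33 (interval 0.02 to 0.65). BTRC, the substrate receptor of a ubiquitin ligase, stood at 0.37 (interval 0.04 to 0.71) and CUL1, the scaffold of that ligase, at -0.35 (interval -0.67 to -0.03). MCPH1, which restrains condensin II, and TOP2A are not analysed here.

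Genes of the cell cycle were thinly represented, with 8 of 39 matched, on 9 records. These had a median log2 fold change of -0.05, 4 higher and 5 lower. In edgeR's quasi-likelihood test 0 passed, 0 had an unadjusted p under 0.05, and DESeq2 and limma-voom called 0. PCNA, the sliding clamp of DNA replication, was at 17.5, 20.6 and 15.97 CPM in the low and at 18.4, 19.5 and 14.5 CPM in the high libraries (-0.05, interval -0.44 to 0.35). The transcription factors E2F4 and E2F3 stood at -0.22 and -0.16, the checkpoint protein BUB3 at -0.21 and the cell cycle inhibitor CDKN1A at 0.36 on its record ENSSSCG00000001565. CENPE, a kinesin of mitotic chromosomes, varied widely inside both groups (16.8, 2.88 and 1.55 CPM in the low, 11.6, 5.02 and 18.6 CPM in the high libraries). Neither it nor PCNA, both picked after their values were seen, had the layout of NCAPD3.

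The nuclear lamina and heterochromatin had 15 of 25 genes matched on 17 records, 7 higher and 10 lower (median -0.12). In edgeR's quasi-likelihood test 0 passed, 0 had an unadjusted p under 0.05, and DESeq2 and limma-voom called 0. TMPO, a lamina-associated protein, stood at 0.44 (interval -0.03 to 0.91), SYNE2, which links nuclei to the cytoskeleton, at 0.28, and the lamin LMNB2 at -0.38. SUN1, a protein of the inner nuclear membrane, has 2 records, which can share reads. That of ENSSSCG00000030564 was at 51.7, 45.4 and 15.1 CPM in the low and at 20.5, 21.8 and 22.2 CPM in the high libraries (-0.80, interval -1.72 to 0.12). Without low library 3 its log2 fold change was -1.17 and it passed (adjusted p = 0.0360 in edgeR's quasi-likelihood test). The other SUN1 record, ENSSSCG00000007544, was at 171, 216 and 120 CPM in the low and at 136, 125 and 141 CPM in the high libraries. Its groups overlapped (-0.34, interval -0.83 to 0.16).

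Markers of fat and connective tissue cells were mostly at higher levels in the high libraries, with 1 record past the threshold. Of 11 adipocyte genes 9 were matched, 7 higher and 2 lower in the high group (median 1.15), with summed levels of 279 to 372 CPM in the low and 343 to 693 CPM in the high group. PLIN4 and CFD held most of that sum in every library. PLIN4 was at 97.4 to 209 CPM in the low and 132 to 317 CPM in the high group, with overlap. PLIN1, which coats the lipid droplets of fat cells, was at 4.75 to 8.04 CPM in the low and 28.4 to 60.7 CPM in the high group (2.75), and CIDEC (listed as CIDE-C) and CIDEA, other proteins of lipid droplets, stood at 2.38 and 1.17. These 3 of the 9 records were over the deposited floor of 10 CPM in the high libraries only, so that, as for NCAPD3, their listing and a difference are not independent. PLIN1 is the 1 record past the threshold in edgeR's quasi-likelihood test, and nothing is read from that call, which was also lost without low library 2, low library 3, high library 2 or high library 3, in limma-voom and with the replicate block. Of the others RETSAT, a retinol saturase, stood at 1.81 and the amine oxidase AOC3 at 0.93. The 2 lower members, named after their values were seen, were AQP7, a glycerol channel, at -0.66 without overlap (12.5 CPM at most in the high and 13.3 CPM at least in the low group) and CFD, the adipokine adipsin, at -0.24. An unadjusted p under 0.05 was found in 7 of the 9, against 18.5% of all records, and DESeq2 called 5, against 6.76%. Limma-voom called 0. The 7 include AQP7, which was lower, and both counts include PLIN1, CIDEC and CIDEA. For these 3 a rise was part of the listing, so nothing is read from the counts or the median. All 11 fibroblast records, from 8 of 8 genes, were higher (median 0.92), with sums of 1389 to 2865 CPM in the low and 3231 to 4297 CPM in the high group; 0 passed in edgeR's quasi-likelihood test, 8 had an unadjusted p under 0.05 (18.5% of all records), DESeq2 called 6 (6.76% of all records) and limma-voom 0. Among them FBN1, the fibrillin of microfibrils, stood at 1.57 and the receptor PDGFRA at 1.43 and 0.88 on its records ENSSSCG00000008841 and ENSSSCG00000028873. The collagen COL1A1 stood at 1.22 on its record ENSSSCG00000017579. On its other record, ENSSSCG00000017581, it stood at 0.47 (interval -0.07 to 1.01), and the groups overlapped. Their part in the level of NCAPD3 was not tested.

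The other markers gave smaller or mixed differences. In endothelial cells 5 of 9 genes were matched, with sums of 254 to 363 CPM in the low and 294 to 364 CPM in the high group, and the receptors KDR and TEK stood at -0.41 and 0.34, ESAM at -0.19 and PECAM1 at 0.25. For macrophages 2 of 8 genes were matched, with sums of 24.3 to 52.9 CPM and 47.7 to 74.03 CPM (CSF1R at 0.54 and MRC1 at 0.76). For lymphocytes 2 of 12 were matched, with sums of 383 to 485 CPM and 432 to 574 CPM; CD8B, a T cell coreceptor chain, held nearly all of that sum (361 to 561 CPM) and PTPRC, the pan-leukocyte CD45, little (6.34 to 22.6 CPM), so the sum is the level of 1 record (CD8B at 0.27, PTPRC at -0.26 and, without low library 2, at 0.45). The erythrocyte gene HBB had 88.8 to 179 CPM in the low and 81.6 to 130 CPM in the high group (-0.22, and 0.19 without low library 2). Of the skeletal muscle genes 11 of 20 were matched (median -0.08), the slow troponins TNNT1, TNNC1 and TNNI1 (listed as TNI-S4) standing at -0.39, -0.39 and -0.40 and DES at -0.30. Over these lists 0 records passed in edgeR's quasi-likelihood test, 0 had an unadjusted p under 0.05, and DESeq2 and limma-voom called 0. No measured marker was at 0 reads in any library.

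Genes listed for satellite cells went in both directions, and PAX7, MYF5 and MYOD1 are not analysed here. Of 10 genes 5 were matched, with sums of 119.9 to 159 CPM in the low and 121 to 140 CPM in the high group. MYOG, myogenin, the transcription factor that starts the last step of muscle cell differentiation, was at 36.5, 36.03 and 37.1 CPM in the low libraries. It was at 13.3, 22.5 and 10.04 CPM in the high libraries, without overlap (-1.26, interval -1.90 to -0.61). It did not pass in edgeR's quasi-likelihood test (adjusted p = 0.112) and was called by DESeq2 (adjusted p = 0.00157). NCAM1, an adhesion molecule of satellite cells and nerves, went the other way, at 0.30 without overlap (interval 0.004 to 0.60). The syndecan SDC4 stood at 0.16 (-0.13 without low library 1) and the cadherin CDH15 at 0.15. In this list 3 records were higher and 2 lower (median 0.15), and 0 passed in edgeR's quasi-likelihood test. Of the 5, 2 had an unadjusted p under 0.05, where 18.5% of all records did. DESeq2 called 1, against 6.76% of all records, and limma-voom 0.

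Likeness to NCAPD3 was measured as the root mean square difference between log2 CPM profiles over the 6 libraries, each profile centred on its own mean, so that 0 means the same rises and falls in the same libraries. No record came close in both shape and size. The measure keeps size, and NCAPD3, chosen from these levels, has the largest fall of all records. A distance in size therefore follows in part from that choice. The nearest were MYOG (0.94), UTP25 (1.01), C12ORF5 (1.02), FAM73B (1.02) and ENSSSCG00000023902 (1.03), against a median of 1.58 over the other 7660 records. A record that does not vary at all would lie at 1.58 as well and the nearest 5 lie only part of the way from there to NCAPD3. C12ORF5, also called TIGAR, encodes a sugar phosphatase that limits glycolysis and stood at 37.2, 42.95 and 37.8 CPM in the low and 24.7, 16.3 and 12.2 CPM in the high libraries. UTP25 was at 24.2, 28.8 and 11.1 CPM in the low and 7.57, 7.75 and 9.86 CPM in the high libraries, and FAM73B, also called MIGA2, a protein of the outer mitochondrial membrane, at 30.4 to 58.96 and 11.4 to 23.9 CPM. In all 5 the groups did not overlap, which the choice by likeness favours. The list depended on the libraries, since between 0 and 4 of the 5 were among the nearest with 1 library left out (0 without low library 1 or without high library 3).

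Mirror images came much closer. With the sign turned, 1 record of THRSP, a regulator of fat synthesis, differed from NCAPD3 by 0.21 (ENSSSCG00000024447; 1.45, 2.56 and 3.15 CPM in the low and 17.8, 12.4 and 24.5 CPM in the high libraries, the low levels lying below the floor of 10 CPM). FASN, the fatty acid synthase, differed by 0.24 on its record ENSSSCG00000029944 and by 0.48 on ENSSSCG00000023044, PLIN1 by 0.50 and SCD by 0.54. THRSP was lowest where NCAPD3 was highest in each group, in low library 1 and in high library 2. With 3 libraries a group such a match is a description. With 1 library left out, 3 to 5 of these 5 were again among the nearest mirror images. NCAPD3 and these records were all singled out by the same contrast, so their closeness is not independent of that choice.

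**Figure D5:**
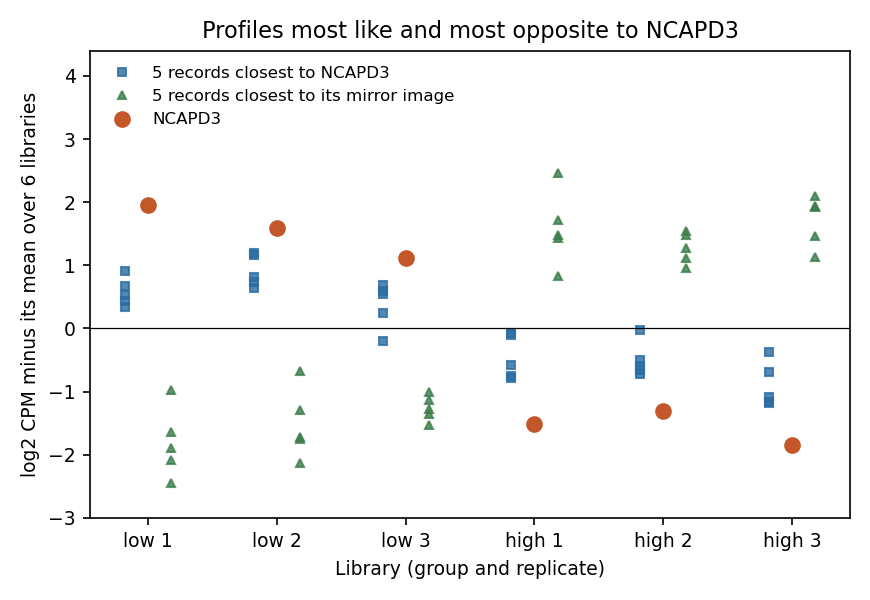
Log2 CPM of each record minus its own mean over the 6 libraries, for NCAPD3 (orange circles), the 5 records with the most similar profile (blue squares) and the 5 with the most opposite profile (green triangles). NCAPD3 lies between 1.12 and 1.95 in the low and between -1.84 and -1.31 in the high libraries, farther from 0 than each of the 5 similar records in every library.

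The authors' deposited table gives NCAPD3 a log2 fold change of 3.15 from high to low, which is -3.15 as high minus low. That value comes from the same 6 libraries and adds no independent measurement.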

How the data were processed

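Total RNA of fresh muscle was isolated with TRIzol and went into Illumina TruSeq libraries, per the labels' protocols. FastQC 0.10.1, Trimmomatic 0.22, TopHat2 2.0.4 and BWA 0.6.2 are named without roles in the submitters' processing notes; the sources used here do not give the read counter, its strand setting, the build or the annotation. The authors deposited raw read counts per gene, and CPM equal to the count over 1 library total per library, which served as library size. The authors' deposited log2 fold change runs low over high and was turned around; the authors' deposited p-values and false discovery rates were not used. The deposited size column (other) is the genomic span.

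All 7661 records were fitted with edgeR 4.0.16 (R 4.3.3; TMM, filterByExpr, quasi-likelihood F-test, no covariates) with Benjamini-Hochberg adjustment over all records and a threshold of 0.05. Intervals are 95% from that fit. The test was run on simulated data, where it called 99% of records changed by 4 times and 63% of those changed by 2 times among 7661. It also called 12 of 7461 unchanged records (0.161%). The simulated counts used means and dispersions taken from these data. PCNA, CENPE, AQP7, CFD, PLIN4 and the records ENSSSCG00000017581 of COL1A1 and ENSSSCG00000007544 of SUN1 were named outside the rule below. Alternatives used DESeq2 1.42.0 and limma 3.58.1. The gene, the lists (198 genes in 16 lists, 98 matched) and the tests were chosen with earlier results of these data known. Named genes are the neighbours within 1 Mb, all condensin, cohesin and SMC5/6 members, in each other list those past the threshold and up to 4 more by p, the 5 nearest and 5 opposite profiles (prior count 2) and the 5 next lowest fold changes. Names came from the deposited table, then an Ensembl name table, then RefSeq (Sscrofa11.1), and 10 records whose names conflicted between them were left out of the lists. P-values measure the spread between libraries of 3 pigs a group.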

Additional observations from a re-analysis of the deposited data

How the results depend on the processing

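The log2 fold change of NCAPD3 stayed between -3.21 and -3.12 with DESeq2 size factors, upper-quartile factors, a minimum mean CPM of 5, no filter, limma-voom, DESeq2, the replicate block or the span trend removed, and between -3.33 and -2.92 with each library left out. The 11 calls among all records became 518 in DESeq2, 2 with the replicate block and 77 at a threshold of 0.1, and 1 to 30 with each library left out. The neighbours kept a count of 0 under every alternative run. The condensin, cohesin and SMC5/6 count of 0 became 1 in DESeq2. The count of 1 in the other lists became 12 in DESeq2, 0 in limma-voom, 0 with the replicate block and 2 at a threshold of 0.1, and was 0 to 2 with each library left out. The 5 nearest profiles shared 0 to 4 with those found with each library left out. The cause of these changes was not tested.

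The replicate numbers do not pair the pigs in the labels. Deviations from the group means of same-numbered libraries correlated at 0.12, 0.03 and -0.08 across 7661 records, which are not independent replicates, so the replicate block is an alternative only.

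Signs turned in 10 of 79 named records, none past the threshold with all libraries. With each library left out, ACAD8 (ENSSSCG00000028123) ranged from -0.0086 to 0.30, VP26B from -0.033 to 0.30, NCAPH (ENSSSCG00000024928) from -0.13 to 0.012 and CDKN1A (ENSSSCG00000001565) from -0.053 to 0.79. E2F3 ranged from -0.25 to 0.044, SDC4 from -0.134 to 0.49, PTPRC from -0.58 to 0.45, HBB from -0.42 to 0.19 and DES from -0.52 to 0.00092. With the span trend removed NCAPH (ENSSSCG00000024928) stood at 0.10 and RAD21 at -0.037. Depth limits low records: 3 counts correspond to between 0.0862 and 0.118 CPM, and genes below the deposited CPM filter were not analysed.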
